A study of Mus musculus with 12 samples.

Results

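Creatine, arginine and polyamine metabolism was followed in mouse kidney through 9 genes chosen by name out of the 55487 genes of the count table. They are Gatm for creatine, Ass1 and Asl for arginine, and Odc1, Azin1, Amd1, Srm, Sat1 and Smox for polyamines. RNA was sequenced from 12 libraries labelled kidney cortex, 3 in each of 4 groups that differed in the gene for augmenter of liver regeneration (ALR, Gfer), a sulfhydryl oxidase of mitochondria, and in ischemia/reperfusion (I/R). Control mice carried floxed ALR alleles without Cre (genotype label WT) and were sham-operated (Ctrl) or injured (Ctrl+I/R). Knockout mice carried the same floxed alleles with Cre under the Ggt1 promoter, which is active in proximal tubule cells (genotype label ALR knockdown), and were sham-operated (PT-KO) or injured (PT-KO+I/R). The groups after I/R are called the injured controls and the injured knockouts. All were 6 to 8 weeks old on a mixed C57BL/6 background, and injury was 22 min of bilateral ischemia with 24 h of reperfusion. All 9 genes had enough counts to be tested in every comparison.

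These pathways meet at arginine. Proximal tubule cells take up citrulline made by the gut and convert it to arginine with argininosuccinate synthase (Ass1) and argininosuccinate lyase (Asl), and the kidney is a main source of arginine for the body. Arginine is used by glycine amidinotransferase (Gatm), which makes guanidinoacetate, the precursor that Gamt methylates to creatine, and is also the source of ornithine. Ornithine decarboxylase (Odc1) makes putrescine from ornithine, and spermidine synthase (Srm) and spermine synthase (Sms) extend it with aminopropyl groups supplied through S-adenosylmethionine decarboxylase (Amd1). Azin1 is an inhibitor of antizyme and so protects Odc1 from degradation. In the other direction, spermidine/spermine acetyltransferase (Sat1) starts polyamine export and breakdown, and spermine oxidase (Smox) turns spermine back to spermidine and releases hydrogen peroxide.

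Levels are given as CPM, read counts scaled to library size and composition (TMM). Each library held between 12165089 and 23123693 counts. In Ctrl, libraries 1 and 2 held 22402 and 19755 counts of Xist, the female transcript, and no Y-linked counts, while Ctrl library 3 and the other 9 libraries had at most 11 Xist counts. Wherever Ctrl is compared, sex is therefore partly confounded with treatment or genotype, and fits with sex as a covariate rest on Ctrl library 3 as the only male control. The comparisons among the other 3 groups were between male libraries. The group of Ctrl library 3 was read from the name of its column, as the titles of the controls carry the numbers 1, 2 and 4. Gfer was not lower in either knockout group (9.97 to 17.1 CPM in PT-KO against 11.4 to 14.4 in Ctrl, and 21.6 to 22.8 in the injured knockouts against 15.3 to 20.0 in the injured controls). The paper reports decreased ALR expression in PT-KO kidneys. These are whole-gene counts of tissue in which other cells keep the allele, and the deletion itself was not tested in these libraries. All 10 proximal tubule markers had counts in every library.

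The genes lie on 7 chromosomes of the mouse build GRCm38 (GENCODE M21). Gatm (chr2:122594467-122611303, minus strand), Ass1 (chr2:31470207-31520672, plus) and Smox (chr2:131491496-131525922, plus) share chromosome 2. Odc1 (chr12:17544794-17551505, plus) lies on chromosome 12. The others are Asl (chr5:130011258-130029247, minus), Azin1 (chr15:38487427-38519266, minus), Amd1 (chr10:40287458-40302186, minus), Srm (chr4:148591503-148594993, plus) and Sat1 (chrX:155213132-155216449, minus).

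RefSeq promoter sequence (GRCm38.p6) was at hand for 6 of the 9 genes. The 3 shown are for the gene that fell most after I/R in the knockout (Gatm), the rate-limiting enzyme of polyamine synthesis (Odc1) and the enzyme that starts polyamine breakdown (Sat1). Each is the stretch directly upstream of the annotated gene start, written 5′ to 3′ on the strand of the gene, at chr2:122611304-122611527 for Gatm, chr12:17544623-17544793 for Odc1 and chrX:155216450-155216699 for Sat1, and capitals mark a match to a searched motif.
Gatm: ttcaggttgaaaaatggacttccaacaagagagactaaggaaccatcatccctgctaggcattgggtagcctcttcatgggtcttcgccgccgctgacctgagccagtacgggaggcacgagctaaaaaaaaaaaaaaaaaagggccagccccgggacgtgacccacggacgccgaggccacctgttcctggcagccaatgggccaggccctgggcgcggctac
Odc1: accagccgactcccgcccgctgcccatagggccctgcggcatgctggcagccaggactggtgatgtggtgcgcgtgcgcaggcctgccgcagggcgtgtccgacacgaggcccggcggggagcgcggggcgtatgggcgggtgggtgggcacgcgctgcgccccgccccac
Sat1: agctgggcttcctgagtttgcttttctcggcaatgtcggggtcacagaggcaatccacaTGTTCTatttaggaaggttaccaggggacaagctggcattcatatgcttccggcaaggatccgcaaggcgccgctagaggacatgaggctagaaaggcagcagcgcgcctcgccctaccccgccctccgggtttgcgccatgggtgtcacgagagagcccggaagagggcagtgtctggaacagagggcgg
The motifs were CACGTG, the E-box bound by MYC and other factors, and AGAACA, the hexamer bound by glucocorticoid and androgen receptors, searched on both strands from 250 bases before to 50 bases after the RefSeq start. CACGTG occurred in 1 of the 6 promoters, that of Ass1, and in 7.15% of the 32851 mouse promoters searched. AGAACA occurred in 1 of the 6, 191 bases before the start of Sat1 and there on the opposite strand, and in 19% of all promoters. A match is only a match of letters, and these windows were not assayed for binding.

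After I/R, Gatm, Ass1 and Asl were lower and Sat1 and Smox higher in both genotypes, and the response was larger in the knockout kidneys for Gatm and Smox. From PT-KO to the injured knockouts all 9 genes changed: Gatm, Ass1, Asl, Odc1 and Azin1 fell and Sat1, Smox, Amd1 and Srm rose (edgeR, adjusted p between 3.8e-08 and 0.00264). Calls were common in this comparison, at 65.5% of the 15155 genes tested (32.9% higher and 32.7% lower). For each of the 9 the uninjured and injured libraries lay apart, as for 70.8% of tested genes. The median log2 fold change was -0.41 over the 9 genes and 0.01 over all tested genes. From Ctrl to the injured controls 4 genes rose (Sat1, Smox, Amd1 and Srm) and 3 fell (Gatm, Ass1 and Asl), where 19.4% of 15567 tested genes were called (11.4% higher and 7.97% lower). Those 7 did not overlap between the groups, which held for 43.7% of tested genes. These 7 calls fell to 4 with sex as a covariate and to 0 without Ctrl library 1 or without Ctrl library 2. Calls over all tested genes fell too, from 3019 of 15567 to 2029 of 16168 with sex as a covariate. Without Ctrl library 1 they fell to 379 of 15831 and without Ctrl library 2 to 413 of 16150. In bulk tissue, fewer cells of a type and less RNA per cell cannot be told apart.

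Between the injured groups, 3 genes were higher (Sat1, Smox and Srm) and 3 lower (Gatm, Asl and Odc1), where 46.9% of 15281 tested genes were called (22.5% higher and 24.4% lower) and 58.7% did not overlap. Scaling by library totals gave 2 higher and 5 lower genes: Srm was no longer called, and Amd1 and Azin1 were called lower. Over all 15281 tested genes it turned 3444 higher and 3725 lower into 1978 higher and 5080 lower. That scaling moved the median log2 fold change of all tested genes from -0.0049 to -0.21. Asl lost its call in 5 of 6 fits that left out 1 library, as did Srm. The call of Odc1 was lost in 5 of 14 alternatives: without injured knockout library 3 (log2 fold change -0.66, adjusted p = 0.0523), with the replicate block (adjusted p = 0.0816), in 1 fit to all 12 libraries without (adjusted p = 0.122) and with sex as a covariate (adjusted p = 0.0604), and among male libraries (adjusted p = 0.0773), at log2 fold changes from -0.84 to -0.66. Between PT-KO and Ctrl none of the 9 genes was called, where 0.00% of 15291 tested genes were called by edgeR and 2573 had an unadjusted p under 0.05, 4 of the 9 genes among them. DESeq2 called 448 genes there, of which Gatm was the only 1 of the 9.

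The interaction term asks whether the I/R response differed between the genotypes. It was called below 0 for Gatm, Odc1 and Azin1 and above 0 for Smox, where 30.6% of 16168 tested genes were called (14.3% higher and 16.4% lower). Gatm fell further and Smox rose further in the knockout. Odc1 and Azin1 fell in the knockout and were not called in the control. With sex as a covariate, Gatm (-3.68, adjusted p = 0.00979) and Smox (1.70, adjusted p = 0.00436) remained called. Odc1 (-1.21, adjusted p = 0.114) and Azin1 (-0.42, adjusted p = 0.152) did not.

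**Figure D1:**
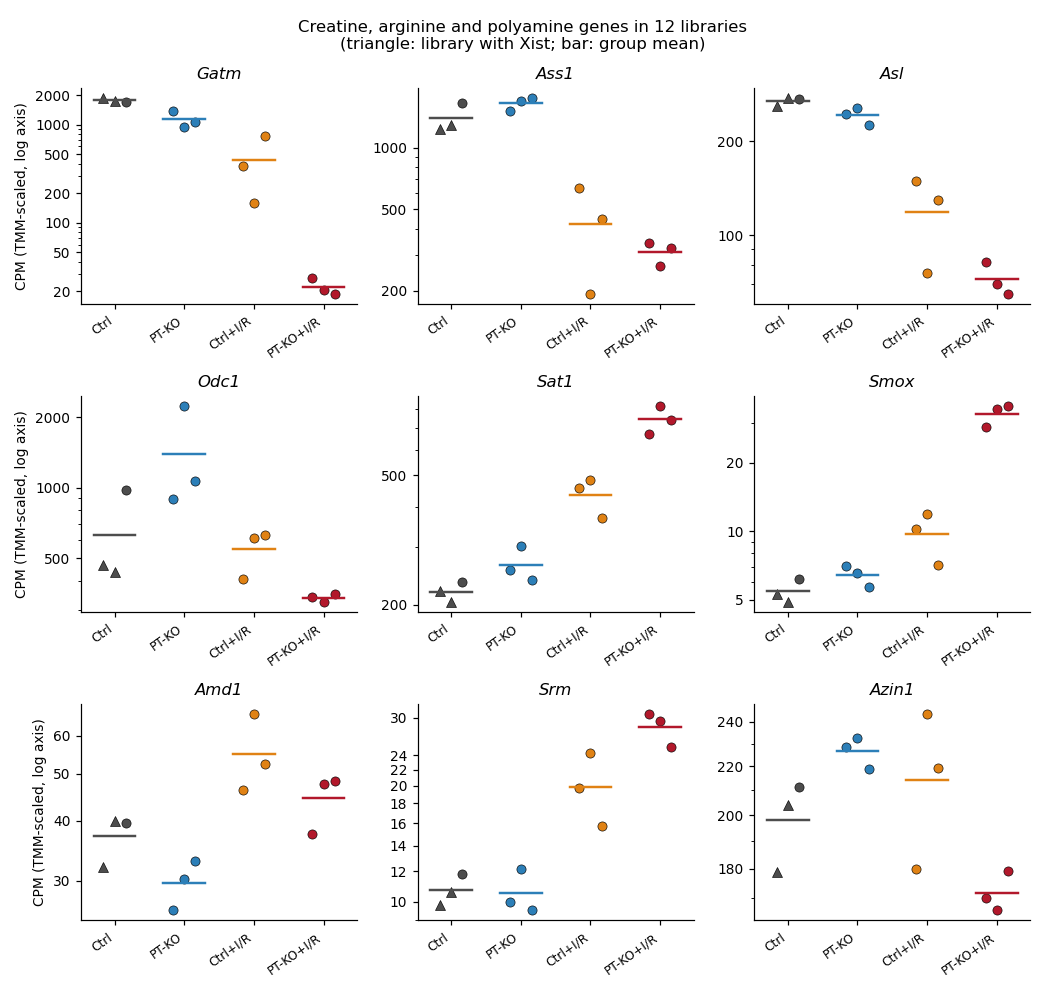
CPM (TMM-scaled, log axis) of the 9 genes in each of the 12 libraries, with a bar at each group mean; triangles are the 2 Ctrl libraries that carry Xist. Gatm falls to between 18.9 and 27.5 in the injured knockouts, Sat1 and Smox are highest there, and Odc1 reaches 2240 in 1 PT-KO library.

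**Figure D2:**
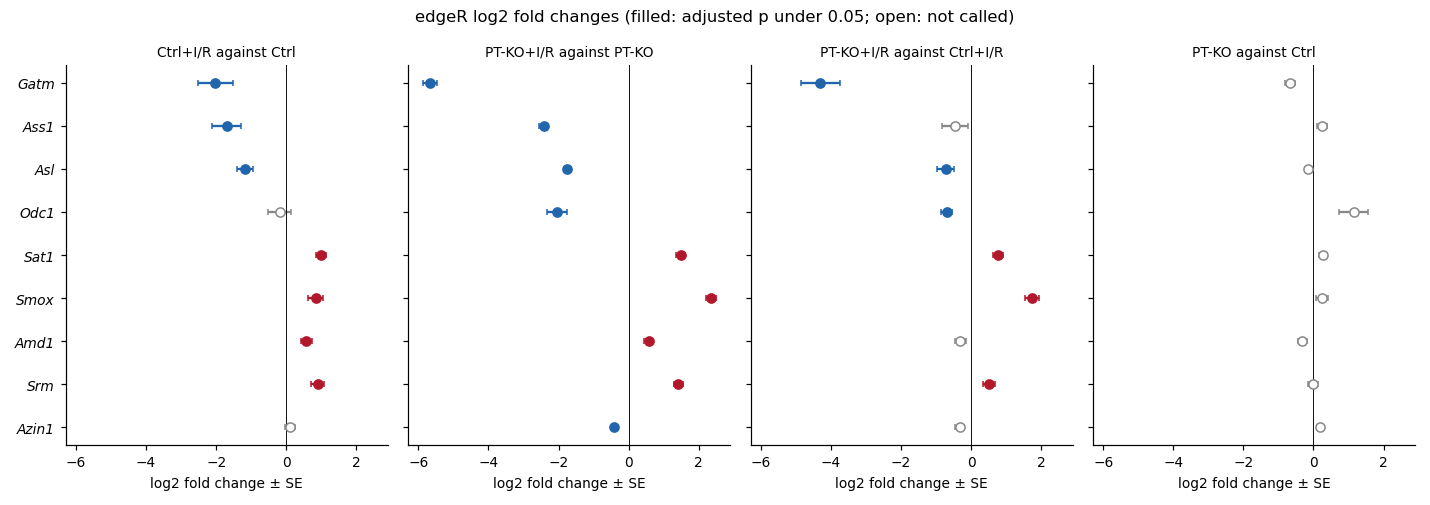
edgeR log2 fold changes with standard errors of the 9 genes in 4 comparisons; filled points have an adjusted p under 0.05 (red higher, blue lower) and open points were not called. All 9 are filled from PT-KO to the injured knockouts and none between PT-KO and Ctrl.

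Gatm, the enzyme that commits arginine and glycine to creatine, fell furthest of the 9. Its CPM were 1888, 1755 and 1715 in Ctrl libraries 1, 2 and 3, and 1374, 952 and 1061 in PT-KO libraries 1, 2 and 4. After I/R they were 381, 159 and 765 in injured control libraries 1, 2 and 4, and 27.5, 20.6 and 18.9 in injured knockout libraries 2, 3 and 4. The 4 groups did not overlap, in the order Ctrl, PT-KO, injured controls, injured knockouts, and the injured controls spread widely while the injured knockouts lay close together. Per kilobase of exon, Gatm ranked 41 among 55141 genes by mean level in Ctrl, 81 in PT-KO, 204 in the injured controls and 5549 in the injured knockouts.

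From PT-KO to the injured knockouts, Gatm fell by 5.68 on the log2 scale (SE 0.20, n = 3 and 3, edgeR adjusted p = 3.8e-08), a 51.1-fold lower level, and it ranked 45 from the lowest of 15155 tested genes. Of the injured groups, the knockouts were lower by a log2 fold change of -4.30 (SE 0.55, adjusted p = 0.000831), and from Ctrl to the injured controls by -2.03 (SE 0.50, adjusted p = 0.0336). The first 2 calls held in each of 14 alternatives; the third was lost in 5 of 14, at log2 fold changes from -2.04 to -1.95. These were the fits without any 1 Ctrl library or without injured control library 1, and the fit to male libraries, where Ctrl library 3 stands alone and is assumed to vary like the other groups. The size of this fall depended on the injured controls, at -1.62 without their library 2, -2.72 without their library 4 and -2.88 with the replicate block. The difference between the 2 I/R responses was -3.63 (SE 0.58, adjusted p = 0.000936) and kept its call in all 19 alternatives. Without injured control library 4, the highest of its group, it was -2.94 and the difference between the injured groups -3.61; without library 2, the lowest, these were -4.04 and -4.71. Between PT-KO and Ctrl, Gatm was at -0.66 (SE 0.15, adjusted p = 0.183): its 3 libraries lay below the 3 of Ctrl, where 21.0% of tested genes did not overlap, and DESeq2 called it (-0.65, adjusted p = 0.000983).

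The other creatine genes that could be tested fell less or were not called. Of 7 listed, Gatm included, 5 could be tested, and 4 fell between the injured groups with none higher, where 24.4% of all tested genes were lower (median log2 fold change -1.16, against -0.0049 over all tested genes). Gamt, the methyltransferase of the second step, stood at 12.2, 11.8 and 13.02 CPM in Ctrl, 11.6, 10.7 and 10.5 in PT-KO, 6.57, 3.92 and 6.77 in the injured controls and 1.797, 2.27 and 1.55 in the injured knockouts. The injured libraries lay below the uninjured ones and the injured knockouts below the injured controls, with a log2 fold change of -1.61 (SE 0.30, adjusted p = 0.00379) between the injured groups. The mitochondrial creatine kinase Ckmt1 (-1.16, adjusted p = 0.00899) and the cytosolic Ckb (-0.83, adjusted p = 0.0276) also fell. The creatine transporter Slc6a8, which takes creatine up from blood, was at -0.10 (adjusted p = 0.502), with 251 to 294 CPM in the injured controls and 234 to 288.5 in the injured knockouts. The muscle creatine kinases Ckm and Ckmt2 were near 0 except in PT-KO library 2, where Ckm had 9.37 CPM against at most 0.32 elsewhere; these 2 were singled out after their values were seen.

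Gatm is a proximal tubule gene, and its fall was set beside 10 proximal tubule markers. The summed level of these markers was 14100 to 16000 CPM in Ctrl, 14600 to 16800 in PT-KO, 4210 to 9730 in the injured controls and 2870 to 3460 in the injured knockouts. All 10 fell from PT-KO to the injured knockouts, by log2 fold changes from -4.03 (the lactate transporter Slc5a12) to -0.99 (the glucose transporter Slc5a2), so that none fell as far as Gatm. Of all tested genes 32.7% were lower in that comparison. Between the injured groups 5 of 10 fell, where 24.4% of all tested genes were lower, with a range over the 10 from -3.56 (Slc5a12) to -0.13 (Slc5a2). Ass1 and Asl lay within the range of the markers in both comparisons. Ggt1, whose promoter drives the Cre, was at -0.22 (adjusted p = 0.189) between the injured groups. Other segments moved too. All 4 thick limb and distal tubule markers fell from PT-KO to the injured knockouts, among them the salt transporter Slc12a1 (-5.05, adjusted p = 6.19e-08) and the potassium channel Kcnj1 (-3.44, adjusted p = 1.11e-06), and 3 of 4 were lower between the injured groups (Slc12a1 -3.40, adjusted p = 0.00824; Kcnj1 -2.38, adjusted p = 0.00492). Their summed level was 5400 to 6190 CPM in PT-KO, 1680 to 4130 in the injured controls and 2140 to 2580 in the injured knockouts. Of 4 collecting duct markers 3 fell from PT-KO and none was called between the injured groups. The part of the markers' movement in the fall of Gatm was not tested.

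**Figure D3:**
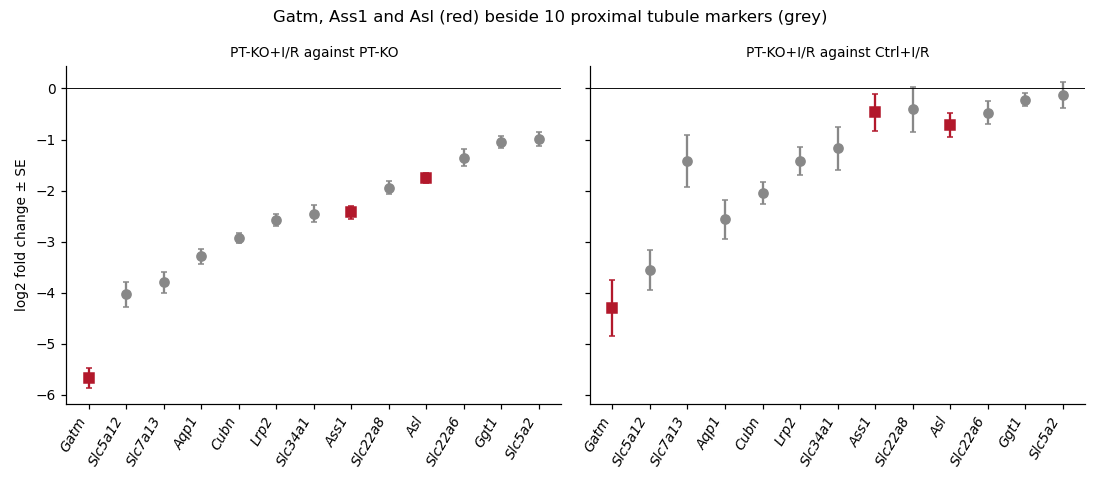
edgeR log2 fold changes with standard errors of Gatm, Ass1 and Asl (red squares) and of 10 proximal tubule markers (grey circles), ordered by the left panel. Gatm lies below every marker in both panels (-5.68 against -4.03 at lowest, and -4.30 against -3.56), and Ass1 and Asl lie among them.

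Ass1 and Asl, the 2 enzymes that make arginine from citrulline, fell after I/R in both genotypes. Ass1 was at 1234, 1290 and 1657 CPM in Ctrl and at 1513, 1698 and 1756 in PT-KO. After I/R it was at 636, 193 and 446 CPM in the injured controls and at 342, 263 and 324 in the injured knockouts. The uninjured libraries were all above the injured ones, while the 2 genotypes overlapped in each state. The log2 fold change was -1.70 (SE 0.41, adjusted p = 0.0306) from Ctrl to the injured controls and -2.43 (SE 0.12, adjusted p = 1.74e-07) from PT-KO to the injured knockouts. Its difference between the injured groups was -0.47 (SE 0.37, adjusted p = 0.325), and it was called only in the fit without injured control library 2, the lowest library (-0.82, adjusted p = 0.00667).

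Asl was at 259, 276 and 273 CPM in Ctrl, 245, 255 and 226 in PT-KO, 149, 75.8 and 130 in the injured controls and 82.2, 69.9 and 64.9 in the injured knockouts. The injured groups overlapped through injured control library 2. Asl fell by a log2 fold change of -1.18 (SE 0.24, adjusted p = 0.0212) in the control and of -1.75 (SE 0.10, adjusted p = 4.68e-07) in the knockout, and was at -0.72 (SE 0.24, adjusted p = 0.0377) between the injured groups. Neither gene's I/R response was called different between genotypes (Ass1 -0.71, adjusted p = 0.24; Asl -0.56, adjusted p = 0.14), though both were without injured control library 2 (-1.07, adjusted p = 0.00589; -0.81, adjusted p = 0.00254). Per kilobase, Ass1 exceeded Asl between 5.10-fold and 15.6-fold in every library. The annotated gene Gm5424 shares 76.5% of its 50-base stretches with Ass1 and held up to 46.5% as many counts, so that reads of the pair cannot be separated with certainty; it moved in the direction of Ass1 from PT-KO to the injured knockouts (-2.12, adjusted p = 8.88e-06).

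Markers of tubular injury and of neutrophils also differed between the injured groups, where 22.5% of all tested genes were higher and 24.4% lower. The summed level of 4 injury markers was 563 to 2660 CPM in the injured controls and 4820 to 6330 in the injured knockouts, and 3 of the 4 were higher in the latter. The summed level of 5 neutrophil markers was 8.85 to 37.8 CPM in the injured controls and 51.2 to 76.3 in the injured knockouts, with Ly6g at most at 0.26 CPM in any library and at 0 in all 6 uninjured ones; of the 4 that could be tested, 3 were higher. The macrophage markers Adgre1, Csf1r, C1qa and C1qb were lower and Cd68 higher in the injured knockouts, and their sum was 75.1 to 120 CPM in the injured controls and 49 to 56.6 in the injured knockouts. Of 3 endothelial markers 2 were higher in the injured knockouts (summed 270 to 288 CPM against 196 to 225), of 3 podocyte markers 1 was lower, and of 4 red cell markers 3 were lower (38.4 to 44.5 against 74.3 to 193). The 4 lymphocyte markers were too low to be tested between the injured groups (0.223 to 0.516 against 1.33 to 5.63). Their part in the differences of the 9 genes was not tested.

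Several other arginine genes were lower in the injured knockouts. Of 20 listed, Ass1 and Asl included, 17 could be tested between the injured groups: 1 rose and 9 fell, beside 22.5% higher and 24.4% lower among all tested genes, with a median log2 fold change of -0.784. Arginine transport moved in both directions. Slc7a7, which passes arginine and lysine out of tubule cells to the blood, was at 185, 163 and 237 CPM in the injured controls and at 31.8, 25.5 and 23.9 in the injured knockouts, without overlap (-2.86, SE 0.18, adjusted p = 0.000108). The luminal transporter subunit Slc3a1 also fell (-1.10, adjusted p = 0.00227), while Slc7a1, the widely expressed arginine importer, rose (0.90, adjusted p = 0.00763), from 21.3 to 32.6 CPM to between 38.7 and 58.9. Aldh4a1, of proline breakdown, fell (-1.56, adjusted p = 0.000491), and so did Oat, the enzyme that turns ornithine toward glutamate and proline (-1.01, adjusted p = 0.00072). Oat was at 534 and 519.5 CPM in the Ctrl libraries with Xist and at 299 in Ctrl library 3, beside 234 to 297 in PT-KO. The inducible nitric oxide synthase Nos2 stayed at or under 1.47 CPM in every library (-0.78, adjusted p = 0.185). The urea cycle genes Otc, Cps1 and Nags were at or near 0 throughout.

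Odc1, the first enzyme of polyamine synthesis, ended lowest in the injured knockouts. It was at 467, 436 and 978 CPM in Ctrl libraries 1, 2 and 3, where library 3 is the male one, and at 894, 2240 and 1064 in PT-KO libraries 1, 2 and 4. After I/R it was at 408, 610 and 627 CPM in the injured controls and at 341, 325 and 351 in the injured knockouts. Among the 10 male libraries the uninjured ones were all above the injured ones, and the injured knockouts lay below every other library; PT-KO library 2 was far above the rest. In mouse kidney Odc1 is known to be raised by androgens.

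From PT-KO to the injured knockouts, Odc1 fell by 2.05 on the log2 scale (SE 0.29, adjusted p = 0.000145), and without PT-KO library 2 by 1.54 (adjusted p = 5.67e-06). Of the injured groups, the knockouts were lower by a log2 fold change of -0.70 (SE 0.17, adjusted p = 0.0119). From Ctrl to the injured controls it was at -0.19 (SE 0.34, adjusted p = 0.711), with the opposite sign without Ctrl library 3 (0.30, adjusted p = 0.346). With sex as a covariate it was at -0.84 (adjusted p = 0.17) there, and at -0.86 (adjusted p = 0.212) in the male libraries, where Ctrl library 3 is the only control. Between PT-KO and Ctrl it was at 1.15 (SE 0.41, adjusted p = 0.248), at 0.51 among male libraries and at 0.65 without PT-KO library 2. It was called there without Ctrl library 3 (1.63, adjusted p = 0.0178), which compares female with male libraries, and with the replicate block (1.65, adjusted p = 0.00891). The interaction was -1.85 (SE 0.51, adjusted p = 0.0168). Several annotated genes share 50-base stretches with Odc1, at most 41% of their own (Gm17709), and none held more than 2.18% as many counts (AW146154).

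Azin1, the antizyme inhibitor, moved little. It ran from 179 to 212 CPM in Ctrl, from 219 to 233 in PT-KO, from 180 to 244 in the injured controls and from 166 to 179 in the injured knockouts, where all 3 libraries were below those of PT-KO and the injured controls and overlapped the lowest Ctrl library. It fell by a log2 fold change of -0.41 (SE 0.08, adjusted p = 0.00134) from PT-KO to the injured knockouts. Its difference between the injured groups was -0.32 (SE 0.13, adjusted p = 0.0651), which 6 of 14 alternatives called. Its interaction of -0.51 (adjusted p = 0.0314) lost its call in 12 of 19 alternatives.

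Sat1, which acetylates spermidine and spermine for export or breakdown, rose after I/R in both genotypes. It was at 220, 204 and 234 CPM in Ctrl, 256, 302 and 238 in PT-KO, 456, 484 and 369 in the injured controls and 673, 819 and 742 in the injured knockouts. None of the 4 groups overlapped, in that order, though Ctrl and PT-KO nearly met at 234 and 238 CPM. PT-KO was not called against Ctrl (0.27, SE 0.11, adjusted p = 0.273), where 21.0% of tested genes did not overlap. The log2 fold change after I/R was 0.998 (SE 0.14, adjusted p = 0.00923) in the control and 1.48 (SE 0.12, adjusted p = 2.89e-06) in the knockout. It was 0.77 (SE 0.14, adjusted p = 0.00405) between the injured groups, while the difference between the 2 responses was 0.50 (SE 0.19, adjusted p = 0.0641). The call in the control was lost in 2 of 14 alternatives and that between the injured groups in 1 of 14. Per kilobase, Sat1 ranked 515 among 55141 genes in Ctrl and 112 in the injured knockouts.

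Smox, the spermine oxidase, was a low transcript that rose mainly in the injured knockouts. It was at 5.33, 4.90 and 6.21 CPM in Ctrl, 7.07, 6.57 and 5.71 in PT-KO, 10.2, 11.9 and 7.15 in the injured controls and 28.7, 34.5 and 35.6 in the injured knockouts. The injured knockouts were all above every other library, and the highest PT-KO library lay just under the lowest injured control. The log2 fold change was 2.35 (SE 0.14, adjusted p = 4.38e-07) in the knockout and 0.84 (SE 0.22, adjusted p = 0.0402) in the control, where the call was lost in 7 of 14 alternatives. Its difference between the injured groups was 1.75 (SE 0.19, adjusted p = 0.000494), and the difference between the responses, 1.52 (SE 0.26, adjusted p = 0.00131), kept its call in all 19 alternatives.

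Amd1 and Srm, which supply and transfer the aminopropyl group, both rose after I/R. Amd1 ran from 32.0 to 39.9 CPM in Ctrl, 26.1 to 33.0 in PT-KO, 46.4 to 66.6 in the injured controls and 37.6 to 48.2 in the injured knockouts. It rose by a log2 fold change of 0.57 (SE 0.15, adjusted p = 0.0419) in the control, a call lost in 7 of 14 alternatives, and of 0.58 (SE 0.13, adjusted p = 0.00264) in the knockout, and was at -0.31 (SE 0.16, adjusted p = 0.135) between the injured groups, which overlapped. Amd2 shares 85.7% of its 50-base stretches with Amd1 and Amd-ps3 94.8%, at up to 17.5% and 16.7% as many counts, so that reads of these copies may have been split. Srm ran from 9.80 to 11.8 CPM in Ctrl, 9.51 to 12.2 in PT-KO, 15.7 to 24.3 in the injured controls and 25.2 to 30.7 in the injured knockouts, where the injured groups lay close but did not overlap. It rose by a log2 fold change of 0.90 (SE 0.18, adjusted p = 0.0193) in the control, a call lost in 5 of 14 alternatives, and of 1.42 (SE 0.14, adjusted p = 1.01e-05) in the knockout, and was at 0.51 (SE 0.17, adjusted p = 0.037) between the injured groups.

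The ratio of Sat1 to Odc1 sets the first step of breakdown beside the first step of synthesis. Per kilobase it was 0.578, 0.574 and 0.294 in Ctrl, 0.351, 0.166 and 0.275 in PT-KO, 1.37, 0.973 and 0.722 in the injured controls and 2.42, 3.1 and 2.6 in the injured knockouts. The injured knockouts were above the injured controls and these above all uninjured libraries, without overlap. The ratio of Gatm to Gamt, the 2 steps of creatine synthesis, was 63.4 to 74.4 in Ctrl, 43 to 57 in PT-KO, 19.5 to 54.4 in the injured controls and 4.37 to 7.36 in the injured knockouts. Ratios of transcripts are not ratios of enzyme activity.

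**Figure D4:**
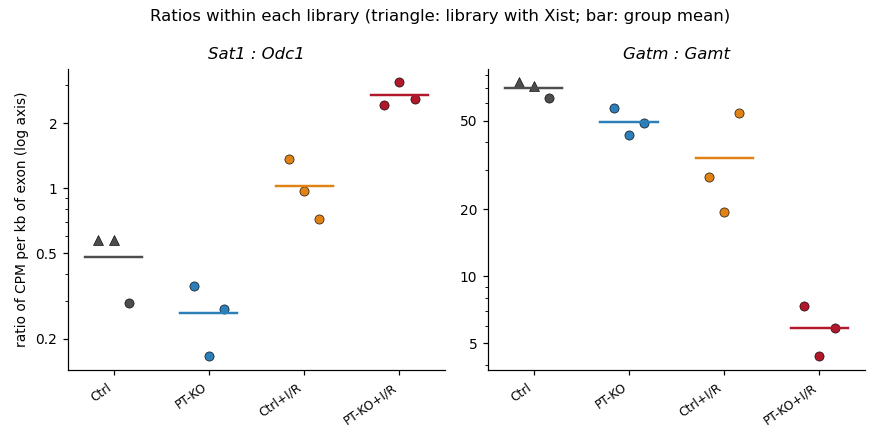
Ratios of CPM per kilobase of exon within each library (log axis) for Sat1 to Odc1 and Gatm to Gamt, with a bar at each group mean; triangles are the 2 Ctrl libraries that carry Xist. Sat1 to Odc1 is 2.42 or more in the injured knockouts and at most 1.37 elsewhere, and Gatm to Gamt is at most 7.36 in the injured knockouts.

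Of 23 polyamine genes listed, 22 could be tested between the injured groups: 5 rose, 2 fell and 15 were not called, where 46.9% of all tested genes were called (median log2 fold change 0.19). Besides Smox, Sat1 and Srm, the rises were the polyamine transporter Atp13a3 (0.83, adjusted p = 0.00167), from 228 to 286 CPM to between 417 and 488, and Eif5a2, a translation factor that carries the spermidine-derived residue hypusine (0.73, adjusted p = 0.00286). Besides Odc1, Mat2a fell, the enzyme that makes S-adenosylmethionine (-1.03, SE 0.13, adjusted p = 0.000924): it was at 478, 470 and 528 CPM in the injured controls and at 249, 272 and 208 in the injured knockouts, without overlap. Not called were spermine synthase Sms (0.05, adjusted p = 0.815), the acetylpolyamine oxidase Paox (0.40, adjusted p = 0.139), the second antizyme inhibitor Azin2 (0.22, adjusted p = 0.583) and antizyme Oaz1 (0.09, adjusted p = 0.572). Sat2, a relative of Sat1 named here after its values were seen, did not rise with it: it fell from PT-KO to the injured knockouts (-1.21, adjusted p = 7.45e-05) and was at -0.74 (adjusted p = 0.0504) from Ctrl to the injured controls. Paox was not called in either (0.23, adjusted p = 0.264, and 0.035, adjusted p = 0.912).

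The methionine salvage genes recycle the methylthioadenosine that Srm and Sms leave behind. Of 7, 3 were higher in the injured knockouts, 1 was lower and 3 were not called, near the 46.9% called among all tested genes. Mri1 (0.72, adjusted p = 0.00662), Got1 (0.62, adjusted p = 0.00807) and Adi1 (0.38, adjusted p = 0.022) rose, while Apip, which lies between Mri1 and Adi1 in the same route, fell (-1.24, adjusted p = 0.000831). Apip was at 12.8 to 13 CPM in the injured controls and at 6.33, 5.30 and 4.84 in the injured knockouts, and the uninjured libraries lay between 9.94 and 12.5. Over the 4 lists together, 51 of 57 genes could be tested between the injured groups, of which 9 rose and 16 fell (median log2 fold change -0.25), near the share of 46.9% called over all genes. Scaling by library totals gave 7 and 21, and over all 15281 tested genes 1978 higher and 5080 lower. From PT-KO to the injured knockouts 16 of 50 rose and 24 fell, where 65.5% of all genes were called, and from Ctrl to the injured controls 9 of 51 rose and 8 fell, where 19.4% were called.

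**Figure D5:**
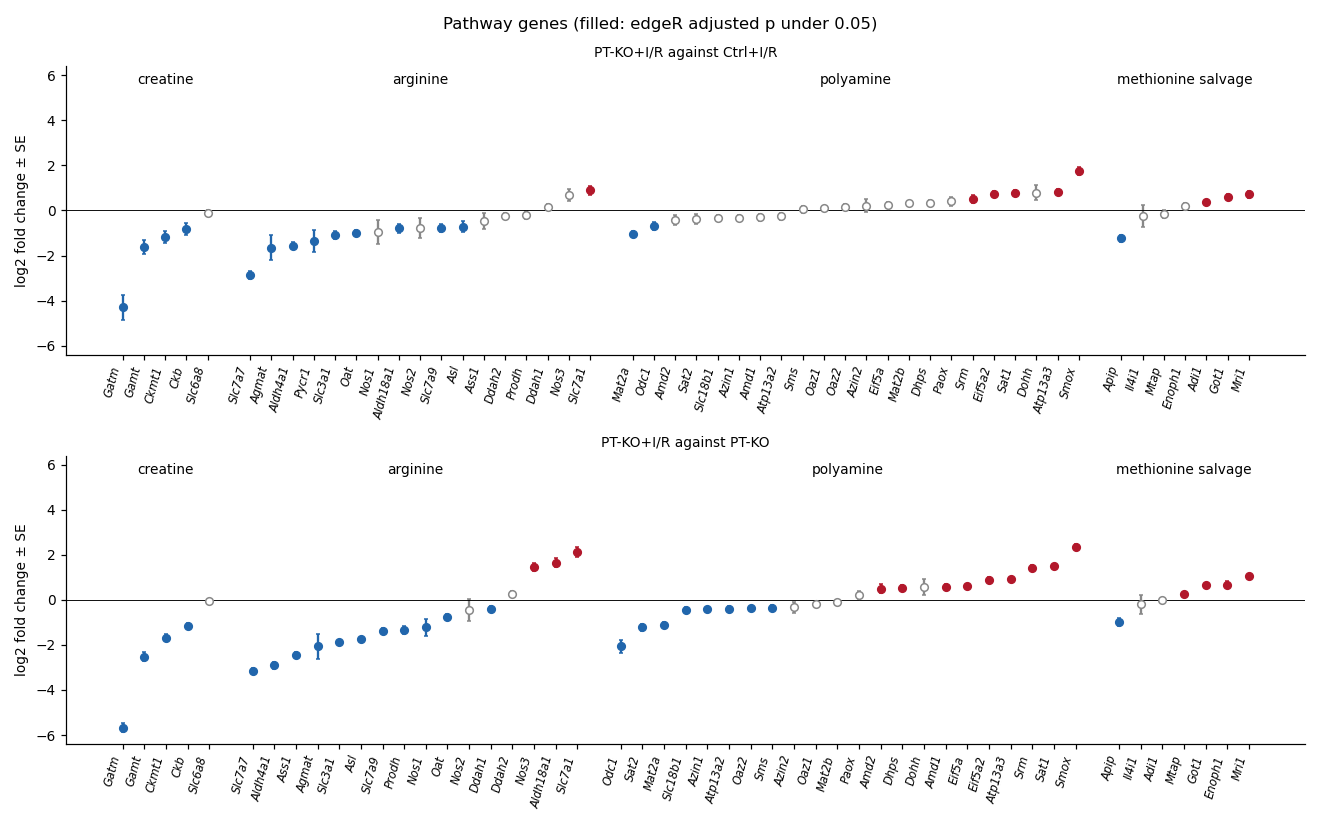
edgeR log2 fold changes with standard errors of the genes of 4 lists that could be tested, between the injured groups (top) and from PT-KO to the injured knockouts (bottom); filled points have an adjusted p under 0.05 (red higher, blue lower). No creatine gene is red in either panel, and Gatm is the lowest point in both.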

How the data were processed

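RNA of 12 libraries was extracted with TRIzol or, as the labels also say, an RNeasy kit, and sequenced on an Illumina platform. The authors deposited whole-number read counts per gene, neither normalized nor filtered; their processing notes name HISAT2 2.0.4 and mm10. The count program, annotation and strand setting are not given in the sources used here. Symbols (55141 of 55487 identifiers) and positions came from GENCODE M21.

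Genes were filtered with filterByExpr, scaled by TMM and tested in R 4.3.3 with edgeR 4.0.16 (quasi-likelihood), using the 6 libraries of a comparison or, for the interaction, all 12, with Benjamini-Hochberg adjustment over all tested genes and a threshold of 0.05. The standard errors (SE) were back-calculated, as the absolute log2 fold change divided by the square root of the quasi-likelihood F statistic. CPM were TMM-scaled over 12 libraries and divided by exon length where genes were compared. Exact permutation tests of 3 against 3 libraries cannot go below p = 0.1. The labels do not say that libraries came from separate mice, so p-values measure the spread between libraries.

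Named were the 9 genes, 9 fixed partners and, per list, up to 3 genes in each direction with the largest change among those called between the 2 injured groups with a mean of at least 100 counts. Members and lists were chosen with earlier results of these data known, and 2 further genes chosen with them are not reported here. The script was tested on simulated data. Alternatives were DESeq2 1.42.0, library totals, other filters, 1 fit to 12 libraries, sex, replicate block and leaving out each library; the fit to male libraries and the AGAACA motif were added after the data were seen.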

Additional observations from a re-analysis of the deposited data

Results flagged for a closer look

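In 4 genes the I/R response differed between the genotypes by the test of the difference itself (edgeR interaction over 12 libraries). The difference on the log2 scale, knockout response minus control response, was -3.63 for Gatm (adjusted p = 0.000936), -1.85 for Odc1 (adjusted p = 0.0168), 1.52 for Smox (adjusted p = 0.00131) and -0.51 for Azin1 (adjusted p = 0.0314). With sex as a covariate Gatm and Smox kept their calls and the other 2 did not. Among male libraries alone the values were -3.69 (adjusted p = 0.0186) for Gatm and 1.69 (adjusted p = 0.00891) for Smox. The control response rests there on Ctrl library 3 alone, which is assumed to vary like the other groups, so these p-values carry no spread of its own group. Groups of 3 libraries were too small to be searched for outlying libraries.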

How the results depend on the processing

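All 9 calls between PT-KO+I/R and PT-KO held in each of 14 alternatives. Elsewhere the counts of called members (of all 57 pathway genes in brackets) moved as follows. Between Ctrl+I/R and Ctrl, 7 (17) became 4 with a sex covariate and 3 (11) among male libraries, and between 0 and 7 (0 and 23) when 1 library was left out. Calls over all tested genes moved there too, from 3019 of 15567 to 2029 of 16168 with a sex covariate. With 1 library left out they ran from 379 of 15831, without Ctrl library 1, to 4061 of 16221, without Ctrl+I/R library 4. Between PT-KO and Ctrl, 0 (0) became 1 (3) with DESeq2, 1 (3) with no low-count filter and 2 (6) with the replicate block. It became between 0 and 3 (0 and 10) with 1 library left out, the highest without Ctrl library 3. Over all tested genes 0 of 15291 became 448 of 26400 with DESeq2 and 388 of 26428 with no filter. With the block it became 1378 of 15291, and with 1 library left out it reached 1930 of 15597, without Ctrl library 3. Between the injured groups, 6 (25) became 2 (5) with the block and between 3 and 7 (18 and 27) with 1 library left out, the lowest count of members without PT-KO+I/R library 3. Over all tested genes 7169 of 15281 became 1683 with the block and between 4918 and 7509 with 1 library left out. For the interaction, 4 (16) became 2 members with a sex covariate, 9 pathway genes with the block, and between 3 and 8 (12 and 22) with 1 library left out, the highest without Ctrl+I/R library 2. Over all tested genes 4953 of 16168 became 3233 with a sex covariate and 3215 with the block. With 1 library left out they were between 3622 and 5509, the highest again without Ctrl+I/R library 2. The cause was not tested.

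Some signs turned. Between Ctrl+I/R and Ctrl these were Odc1 (0.15 with the block, -0.38 to 0.30 with 1 library left out, above 0 without Ctrl library 3) and Azin1 (-0.0017 among male libraries). Between PT-KO and Ctrl they were Srm (0.11 with the block, -0.14 to 0.052 with 1 library left out) and Ass1 (-0.0013 with a sex covariate, -0.013 among male libraries). Between the injured groups they were Sms (-0.15) and Oaz1 (-0.11) with library totals, Ass1 with the block (0.18, against -0.47 without), Azin2 (-0.053 to 0.38) and Sms (-0.044 to 0.17) with 1 library left out. For the interaction, Amd1 turned with library totals (-0.078), no filter (-0.012), at least 10 counts in every library (-0.014), the block (-0.13) and 1 library left out (-0.10 to 0.16). Replicate numbers did not pair the libraries: the residuals of 12 same-numbered pairs had a median correlation of -0.051 and 1 was over 0.1. Library totals moved the median log2 fold change of all tested genes to 0.106 between Ctrl+I/R and Ctrl, -0.135 between PT-KO and Ctrl, -0.21 between the injured groups and -0.104 for the interaction. What depth limits was not tested; Ly6g was too low to be tested in any comparison.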

Other observations

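The genes whose log2 CPM ran most like each of the 9 over the 12 libraries were sought among 10976 well-counted genes, as a description over libraries that share groups, and Pearson's r is given with no p. Gatm was followed most closely by Fut9 (0.997) and by Amt (0.996), a subunit gene of the glycine cleavage system. Ass1 was followed by Aldh6a1 (0.987), of valine breakdown, and Asl by Dmac2 (0.992) and Acadsb (0.991), the latter of isoleucine breakdown. Odc1 ran most like Gm9115 (0.979), which shares sequence with it, and Dhdds (0.971). Smox ran most like Rps6ka4 (0.997), Sat1 like Pa2g4 (0.99), Srm like Fbxo6 (0.992), Amd1 like Gm10052 (0.957) and Azin1 like Inpp5f (0.932).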
